A study of Anser sp. with 4 samples.

Results

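A set of 241 transcript identifiers stood at least 2-fold higher in goose skin at both 1.5 and 5 days after molt than at both flanking samplings, before molt and 10 days after it. They were chosen by that pattern out of 20408 identifiers with a usable probe, among 31550 on the array. The skin came from the belly of female Wanxi-White geese, and the samples are before molt, 1.5 days, 5 days and 10 days after molt, with 1 array each. The labels name 6 birds kept in their own pen, give no genotype, treatment or age at sampling, and do not say whether RNA was pooled or which birds lie behind each array. There is thus no replicate at any time, no test was made and no p-value is given, and a difference between times cannot be told apart from a difference between samples.

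A feather grows from a follicle, an epidermal tube around a dermal papilla. After a feather is shed, cells in the collar of the follicle divide, and their descendants form barbs, barbules and sheath and fill with keratin. Skin taken around a molt therefore holds follicles in rest, in regrowth or in both, together with interfollicular epidermis, dermis, fat, vessels and blood. In such whole tissue, fewer cells of a type and less RNA per cell cannot be told apart.

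The probes carry chicken identifiers, mostly Ensembl, RefSeq and GenBank accessions, and gene symbols stand beside 0 of them in the files. The identifiers are therefore given without gene names or roles, the lists of pathway genes and of cell type markers could not be matched, and the labelled tissue could not be checked against its markers. Probe sequences are not in the files used here. Goose RNA on chicken probes loses signal where the sequences differ, so each probe is compared only with itself across the arrays.

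Signals are given as level, the log2 processed spot intensity minus the 75th percentile of the same array, averaged over the probes of an identifier. A level of 0 is thus the intensity at that percentile, and levels under -3.7 were set to -3.7. The step of an identifier is the lower of its levels at 1.5 and 5 days minus the higher of its levels before molt and at 10 days. Membership asked for a step of at least 1, which is 2-fold, and for levels at 1.5 and 5 days that differ by under 1. All 4 arrays entered this rule, so levels and steps of the members describe the choice and are no evidence for it.

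The identifier with the largest step among those detected on every array was ENSGALT00000034214, read by 1 probe. Its processed intensity was 174 before molt, then 1696 at 1.5 days, 1086 at 5 days and 188 at 10 days. On the level scale these are 0.48, 3.66, 3.37 and 0.78, so that the samples of 1.5 and 5 days lie far above both flanking ones and close to each other. The identifier was 9.06-fold higher at 1.5 days and 7.42-fold higher at 5 days than before molt. Against 10 days it was 7.36-fold higher at 1.5 days and 6.03-fold higher at 5 days. The step was 2.59.

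ENSGALT00000038996, also read by 1 probe, had the next largest step, 2.55. Its intensity was 11.2 before molt, then 85.6 at 1.5 days, 69.7 at 5 days and 11.9 at 10 days. The corresponding levels were -3.47, -0.65, -0.59 and -3.20. Both flanking values lay just above the floor, although the probe was flagged as well above background on all arrays. Compared with before molt it was 7.09-fold higher at 1.5 days and 7.38-fold higher at 5 days.

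The identifier with the most probes gives the fullest view of how separate probes trace the pattern. It was read by 9 probes whose levels spanned 1.22 to 9.14 before molt, 3.73 to 9.39 at 1.5 days, 4.51 to 10.05 at 5 days and 2.08 to 8.83 at 10 days. The median over the probes was 5.34 before molt, then 6.64 at 1.5 days, 7.78 at 5 days and 5.39 at 10 days. The probes differed widely in level, but all 9 had a step above 0, and 5 of them met the whole rule alone. Their steps ran from 0.26 to 1.98 with a mean of 1.11 ± 0.49 (SD over 9 probes of the same 4 RNA samples). The smallest step, 0.26, was that of the brightest probe. The identifier did not meet the rule when read by its brightest probe alone, nor with the arrays scaled on spike-in control RNAs.

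**Figure D1:**
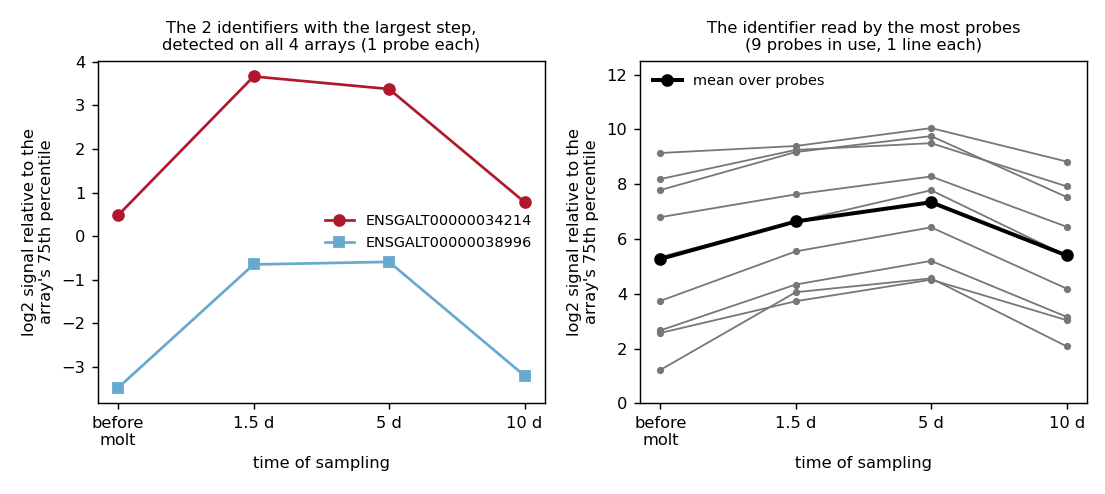
Level (log2 processed signal relative to the array's 75th percentile) by time of sampling. Left, the 2 identifiers with the largest steps among those detected on all arrays, with levels at 1.5 and 5 days of 3.66 and 3.37 for one and -0.65 and -0.59 for the other. Right, the 9 probes of the identifier read by the most probes, where each grey line is 1 probe, the black line is their mean and every probe has a step above 0.

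Steps were mostly small. Over the 241 identifiers the median step was 1.22, with quartiles of 1.10 and 1.40 and a highest value of 2.70. A step of at least 1.5 was reached by 44 of them and a step of at least 2 by 10. The 3 identifiers just inside the threshold had steps of 1.00045, 1.004 and 1.011, and the 3 just outside had 0.9976, 0.9978 and 0.9997. Another 8 identifiers had a sufficient step but differed by 1 or more between 1.5 and 5 days, 4 of them higher at 1.5 days and 4 at 5 days. The median step of all 20408 identifiers was -0.27. As a lower level minus a higher one, the step lies under 0 on average by scatter alone, so this value is not read as a fall.

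Identifiers of this pattern made up 1.18% of those with a usable probe. The rule with its signs turned, for identifiers low at 1.5 and 5 days, found 655, or 3.21%. The share of each pattern is a description of these arrays, since the counts move with the scale used.

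Among the members, the median level was -2.12 before molt, then -0.36 at 1.5 days, -0.42 at 5 days and -2.11 at 10 days. The median difference was 1.57 for 1.5 days against before molt, or 2.98-fold, and 1.48 for 5 days against before molt, or 2.78-fold. Against 10 days the median differences were 1.47 at 1.5 days, or 2.78-fold, and 1.41 at 5 days, or 2.65-fold. Differences of at least 4-fold from before molt were found in 51 members at 1.5 days, where 0.725% of all identifiers reached them, and in 47 at 5 days, where 0.921% of all did. At least 4-fold above 10 days were 43 members at 1.5 days, against 0.750% of all identifiers, and 37 at 5 days, against 0.652% of all. The rule used these comparisons, so nothing is read from the counts.

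The rule held the 2 raised times within 2-fold of each other. Inside that limit 82 of the 241 identifiers, or 34.0%, were higher at 5 days than at 1.5 days, and 159, or 66.0%, were higher at 1.5 days. Of all identifiers, 41.2% were higher at 5 days and 49.1% at 1.5 days. The rest had equal levels, as where both were set to the floor, while 0 members were at the floor at these times. The shares of members and of all identifiers thus have unlike bases. The difference of 5 days minus 1.5 days had a median of -0.08 and ran from -0.93 to 0.94, against a median of 0.00 for all identifiers. For 211 members, or 87.6%, it was at most 0.5 in size, as for 77.7% of all identifiers, those with equal levels included. With the arrays scaled on the spike-in control RNAs the order turned, with a median difference of 0.27, 195 members higher at 5 days and 46 higher at 1.5 days.

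The rule set no limit on how far the level at 10 days could lie from that before molt. For 178 of the 241 members, or 73.9%, the 2 levels were within 0.5 of each other, as for 65.0% of all identifiers. This share counts 38 members that were at the floor on both arrays. The median difference of 10 days minus before molt was 0.00 for the members and 0.00 for all identifiers. At 10 days 17 members, or 7.05%, remained at least 2-fold higher than before molt, against 4.15% of all identifiers. Lower by at least 2-fold at 10 days were 9, or 3.73%, against 7.31% of all. Since the rule uses the higher of these 2 levels, their difference is not independent of it.

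The members were divided by mean level over the 4 arrays, with limits chosen after their values were seen, into bright (over 1), middle (over -1, to 1), dim (over -2.5, to -1) and dimmest (-2.5 or under). Because levels of different probes cannot be set against each other as amounts of RNA, these classes describe how far the signal lay above background. There were 50 bright members, 62 middle, 60 dim and 69 dimmest. They made up 0.983% of all bright identifiers, 1.29% of middle, 1.36% of dim and 1.13% of dimmest ones. Each class thus met the rule at a share near the 1.18% of all identifiers, and nothing more is read from these shares.

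Bright members had a median level of 1.64 before molt, then 3.72 at 1.5 days, 3.50 at 5 days and 2.11 at 10 days. Middle members had -0.86 before molt, then 0.84 at 1.5 days, 0.89 at 5 days and -0.70 at 10 days. Dim members had -2.63 before molt, then -0.85 at 1.5 days, -0.99 at 5 days and -2.64 at 10 days. The dimmest had medians of -3.7 before molt and at 10 days, which is the floor, and of -2.11 at 1.5 days and -2.27 at 5 days. Median steps were alike over the classes, 1.15 in bright, 1.22 in middle, 1.30 in dim and 1.18 in dimmest members.

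**Figure D2:**
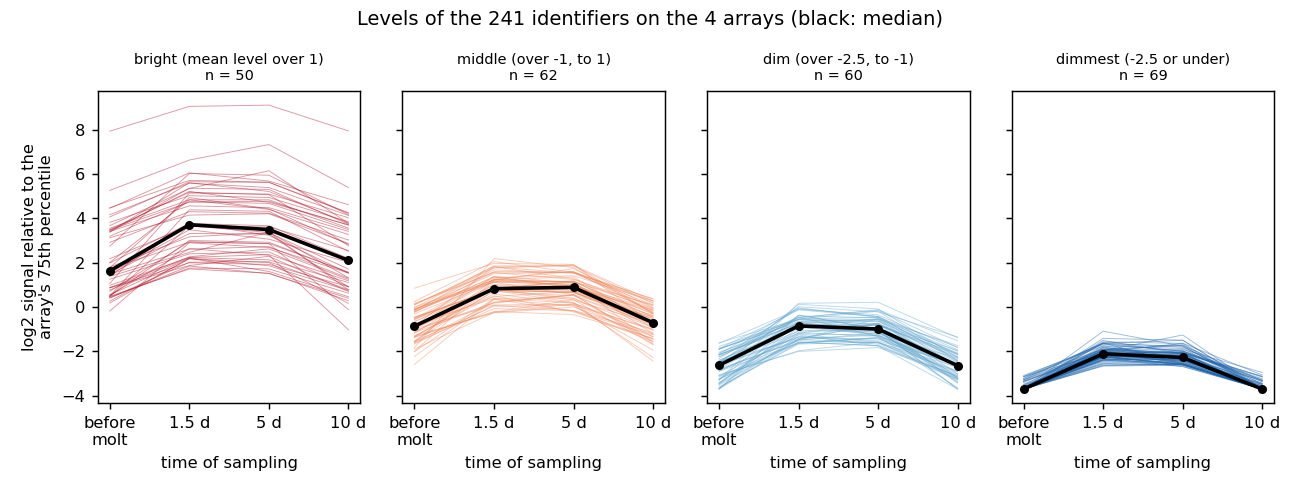
Level (log2 processed signal relative to the array's 75th percentile) of each of the 241 identifiers by time of sampling, in 4 panels by mean level. Each thin line is 1 identifier and the black line is the median. In all panels the lines are high at 1.5 and 5 days, as the rule asks, and in the dimmest panel the median flanking levels are at the floor of -3.7, where 45 of 69 members lie before molt and 46 at 10 days.

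All 241 members were detected, that is well above background, at 1.5 days and at 5 days, against 90.7% and 83.7% of all identifiers. This is largely built in, since probes had to be detected on 1 array or more and the rule makes these arrays the highest. Before molt 208 were detected, or 86.3%, against 92.6% of all identifiers, and at 10 days 190, or 78.8%, against 88.3% of all. A total of 183 members, or 75.9%, were detected on all 4 arrays, against 77.8% of all identifiers. Another 26 were detected neither before molt nor at 10 days, 25 before molt but not at 10 days, and 7 at 10 days but not before molt. On an array where a member was not well above background its level is only a bound. A total of 0 member spots were saturated.

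Of the summed signal of all spots other than controls, the members made up 0.521% on the array from before molt, 1.31% on that of 1.5 days, 1.70% on that of 5 days and 0.560% on that of 10 days. The identifier read by 9 probes carried much of this share, with 0.319% of the signal before molt, then 0.648% at 1.5 days, 1.03% at 5 days and 0.310% at 10 days. The remaining members together held 0.201% before molt, then 0.658% at 1.5 days, 0.666% at 5 days and 0.250% at 10 days. All spots of an identifier were summed, so an identifier with more probes weighs more, and these shares are not amounts of RNA. Their rise at 1.5 and 5 days is largely built in by the rule.

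By kind, most members were Ensembl transcripts, GenBank accessions or RefSeq RNAs, in shares close to those of the 20408 identifiers with a usable probe. Ensembl transcripts were 103 of the members, or 42.7%, against 42.6% of all identifiers. GenBank accessions were 68, or 28.2%, against 26.8%. Curated RefSeq mRNAs were 45, or 18.7%, against 18.4%, and predicted RefSeq RNAs 17, or 7.05%, against 6.55%. Entries with NP or TC names were 7, or 2.90%, against 5.39%.

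Most members rested on a single probe. That was so for 206 of 241, or 85.5%, against 77.4% of all identifiers. Of identifiers read by 1 probe 1.30% were members, and of those read by 2 or more 0.760%. For 25 probes spotted 5 times and detected throughout, the SD of the step between spots of the same probe was 0.13. The scatter between different probes of a member was larger.

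Over the 35 members with 2 or more probes in use there were 85 probes, of which 48 met the rule alone and 78 had a step above 0. In 10 of the 35 members every probe met the rule, and in 28 every probe had a step above 0. In some of the 35 no probe met the rule alone. Levels were averaged over probes before the floor was set, while here each probe was floored singly. A member's step can thus exceed those of all its probes, as in 1 dim member with 1.71 against 0.49, 0.62 and 0.32. All 85 probes took part in the choice, so their agreement is a description. Over all identifiers with 2 or more probes, 32.1% of probes had a step above 0. Among the 10 bright members of this kind, all 29 probes had a step above 0, from 0.26 to 1.98, and 6 members met the rule on every probe. The identifier with the most probes gave 9 of these 29. Among 13 middle members 27 of 28 probes had a step above 0, and 3 members met the rule on every probe. Among 8 dim members it was 17 of 20 probes and 1 member. Among the 4 dimmest members 5 of 8 probes had a step above 0 and 0 members met the rule on every probe.

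**Figure D3:**
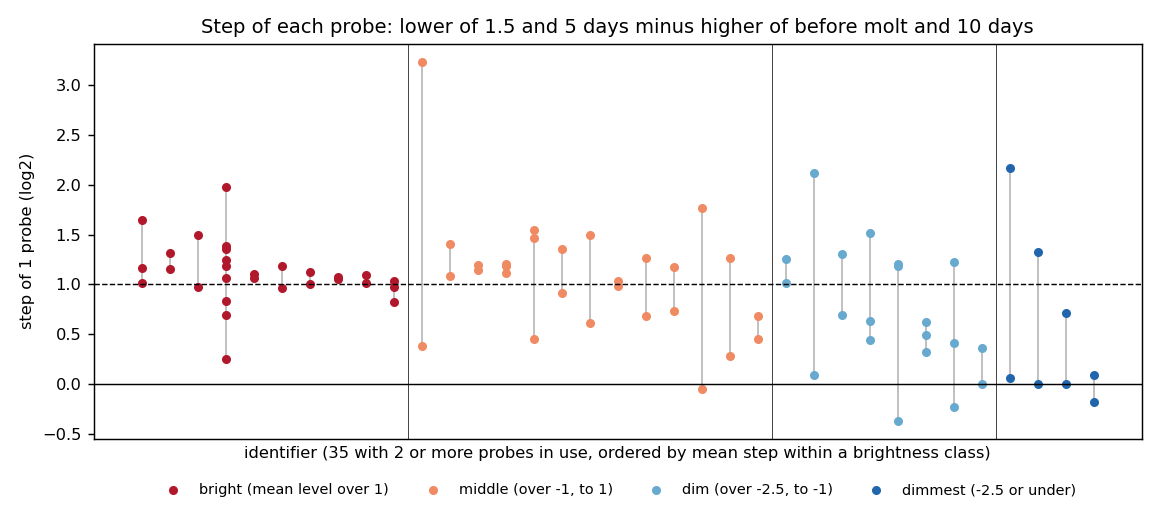
Step (log2) of each probe for the 35 identifiers read by 2 or more probes in use. Each column is 1 identifier, each point 1 probe, the grey line spans its probes, the dashed line is the threshold of 1 and colours give the brightness class. All 29 probes of bright identifiers, 9 of them from 1 identifier, lie above 0, while probes of dim and dimmest identifiers reach down to -0.37.

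The pattern was then read on probes that had no part in choosing it, although from the same 4 RNA samples. The probes of each of 4603 identifiers with 2 or more were divided alternately, by probe name, into 2 sets. The first set chose 52 identifiers, and on the second set 34 of these had a step above 0 and 11 met the rule, where 31.4% of all such identifiers had a step above 0 and 1.15% met the rule. The second set chose 53, and on the first 29 had a step above 0 and 11 met the rule, with 32.3% and 1.13% of all. These are the same 11 identifiers, those that met the rule on both sets, so the second count repeats the first. The median step on the probes that did not choose was 0.39 for the first choice and 0.18 for the second, against -0.18 for all identifiers in each reading.

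The counts were also taken by the class of the choosing probes. Those that met the rule on both sets are the same identifiers in either reading, classed by other probes. Of identifiers whose choosing probes were bright, the first set chose 16, and on the other probes 14 had a step above 0 and 8 met the rule, against 31.9% and 0.968% of all bright identifiers. The second set chose 19, of which 14 had a step above 0 and 6 met the rule on the other probes, against 33.5% and 1.12% of all bright ones. Of identifiers chosen on middle probes, 10 of 15 and 7 of 10 had a step above 0 on the others, against 34.4% and 36.0% of all middle ones, and 2 and 3 met the rule, against 1.31% and 0.983%. On dim probes it was 8 of 16 and 6 of 15, against 30.9% and 31.6% of all, and 1 and 2 met the rule, against 1.65% and 1.36%. On probes of the dimmest class 2 of 5 and 2 of 9 had a step above 0, against 26.5% and 26.8% of all, and 0 met the rule in either reading, against 0.799% and 1.11%.

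Member probes were not spread evenly over the array. Position played no part in the rule. In the corner of rows 1 to 266 and columns 1 to 42 lay 147 of the 291 member probes in use, or 50.5%, but only 24.2% of all probes in use. Among the dimmest members it was 49 of 73 probes, or 67.1%, among dim members 35 of 72, or 48.6%, among middle members 32 of 77, or 41.6%, and among bright members 31 of 69, or 44.9%. By columns alone, 1.94% of the probes in columns 1 to 14 were member probes, against 0.554% of those in columns 71 to 85.

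Over all probes in use, members or not, signals of dimmest, dim and middle identifiers in that corner shifted in the same sense. Those of bright identifiers hardly differed from the opposite corner. For probes of the dimmest identifiers there, the mean of 1.5 and 5 days minus the mean of before molt and 10 days had a median of 0.48, against -0.44 in the opposite corner of high rows and high columns. For dim identifiers the medians were 0.38 in the first corner and -0.13 in the opposite one, and for middle identifiers 0.28 and 0.07. For bright identifiers they were 0.13 and 0.12. Measured against their own mean over the arrays, the dimmest probes of the corner had a median of -0.04 before molt, then 0.34 at 1.5 days, 0.18 at 5 days and -0.46 at 10 days. All 4 arrays share 1 slide and 1 scan, and the same probe has the same place on each.

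**Figure D4:**
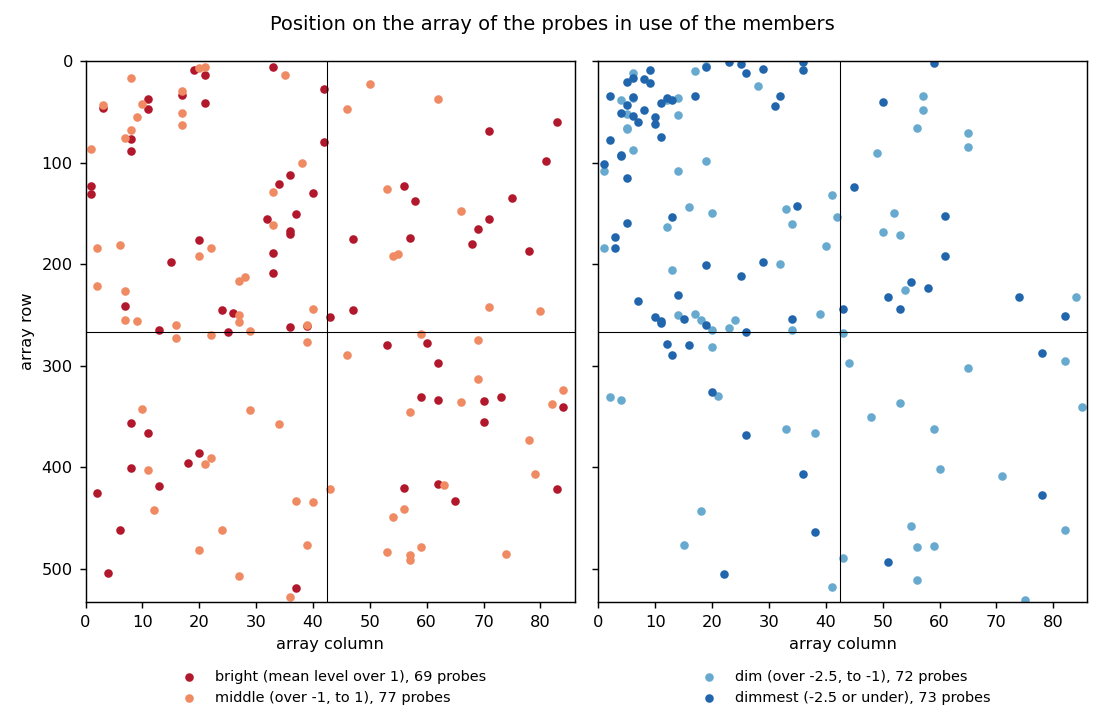
Place on the array (column across, row down) of the 291 probes in use of the 241 identifiers, with bright and middle identifiers on the left and dim and dimmest ones on the right. The thin lines divide rows at 266 and columns at 42. The corner of low rows and low columns holds 147 of the 291 probes.

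The shift was also measured on the spots around each probe. For every probe in use, the contrast of 1.5 and 5 days against before molt and 10 days was taken as the median over spots of other identifiers within 0.6 mm and on the same side of a level of -1. Probes were then ranked by this value and split into 5 equal groups. In the group with the highest values 2.24% of probes were member probes, and in the lowest 0.459%. The ranking was repeated within bright and middle identifiers and within dim and dimmest ones, so their groups have other limits. Among bright and middle identifiers the shares were 1.54% in the highest group, from 0.07 upward, and 0.685% in the lowest. Among dim and dimmest ones they were 3.40% in the highest, from 0.33 upward, and 0.592% in the lowest.

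Adjusting for position changed which identifiers met the rule more than how many. With the local shift taken out in 8 by 6 blocks of the array and by class, 221 identifiers met the rule, 162 of them among the 241. With the shift of the surrounding spots taken out, 226 met it, 150 of them among the 241. The dimmest class lost most, with 19 of 69 left by the first adjustment and 25 of 69 by the second. Of dim members 43 and 30 of 60 were left, of middle members 55 and 53 of 62, and of bright members 45 and 42 of 50. The median step of bright members was 1.18 and 1.20 after the adjustments, and of the dimmest 0.83 and 0.84. After the adjustments the corner of low rows and low columns held fewer of the dimmest and dim identifiers, while middle and bright ones stayed unevenly placed. Of the probes of dimmest identifiers that met the rule, that corner held 6 of 53 after the first adjustment, or 11.3%, and 11 of 48 after the second, or 22.9%, and the corner of high rows and low columns held 29 of 53 and 22 of 48. Of the dim ones the latter corner held 20 of 69 and 31 of 74. The corner of low rows and low columns held 20 of 69 of the dim ones, or 29.0%, and 12 of 74, or 16.2%. It also held 28 of 78 and 29 of 79 of the middle ones, or 35.9% and 36.7%. Of the bright ones it held 30 of 67, or 44.8%, after the first and 26 of 69, or 37.7%, after the second. ENSGALT00000034214, at row 9 and column 19, had a step of 2.70 after either adjustment. ENSGALT00000038996, at row 265 and column 34, had 2.33 after the first and 2.09 after the second. Both adjustments were chosen after seeing the data.

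The spike-in control RNAs also shifted between arrays, and the count of members depended on whether they set the scale. They stood 0.94 ± 0.09 higher relative to the 75th percentile at 1.5 days than before molt, 0.59 ± 0.05 higher at 5 days and 0.41 ± 0.08 higher at 10 days (SD over 5 spike-in probes). With the arrays scaled on them, 45 identifiers met the rule, 43 of them among the 241. The step of every member stayed above 0, as it must since none of these shifts reached 1, and its median was 0.63. A 2-fold step relative to the 75th percentile is set by the rule, and relative to the spike-ins most members did not reach it.

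With normexp, a background correction that adds a constant of 50 and so draws dim signals together, 26 identifiers met the rule, 25 of them among the 241. Of these 25, 13 were bright, 10 middle, 2 dim and 0 dimmest. The step of ENSGALT00000034214 was 2.06 under normexp and 2.24 under spike-in scaling, and that of ENSGALT00000038996 was 0.95 and 1.88. Under the authors' log2 table and under quantile normalization 226 of the 241 met the rule in each case, and the 15 that did not were all bright.

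**Figure D5:**
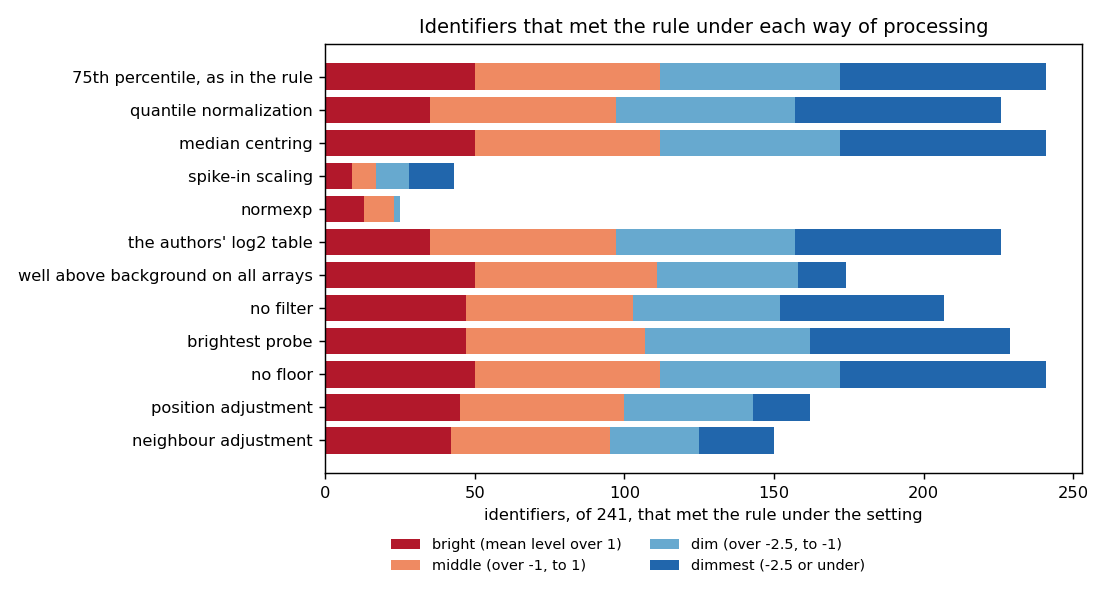
Number of the 241 identifiers that met the rule under each way of processing, with colours for the brightness class. Bars fall to 43 under spike-in scaling and 25 under normexp, and the position and neighbour adjustments leave 162 and 150, with the largest loss in the dimmest class.

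The rule was met under quantile normalization, median centring, the authors' log2 table and both position adjustments by 129 of the 241 members, 32 bright, 50 middle, 30 dim and 17 dimmest. Their median level was -0.95 before molt, then 0.80 at 1.5 days, 0.68 at 5 days and -0.86 at 10 days. It was met under all 11 other settings by 12 members, 6 bright, 5 middle and 1 dim. The 11 settings are not separate checks. Removing the floor cannot lower the step of a member, median centring kept all 241, and the brightest probe changes nothing for an identifier read by 1 probe. These 12 were detected on all 4 arrays, as 1 of the settings asked. Of them, 1 was read by 2 probes, with steps of 0.39 and 3.23, so that only the latter probe met the rule alone. That probe lay at row 17 and column 8, in the corner of low rows and low columns, and the former at row 483 and column 53. The remaining members of the 12, with ENSGALT00000034214 among them, were read by 1 probe each. The steps of the 12 ran from 1.54 to 2.59 with a median of 1.97. Of the 12, 10 were higher at 10 days than before molt, against 43.1% of all identifiers, with a median difference of 0.36. The spike-in setting asks for a larger rise over before molt than over 10 days, so this count is in part built in. On the spike-in scale 6 of the 12 were higher at 10 days and the median difference was -0.05. This smaller set was formed after its values were seen.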

How the data were processed

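Total RNA of 4 skin samples was labelled with Cy3 and hybridised to 1-colour Agilent arrays annotated on galGal3. The deposited scanner files hold spot intensity, background-subtracted but not scaled between arrays, made with Agilent Feature Extraction 10.7 per the submitters' processing notes and release 10.7.3.1 per the file headers. The authors' deposited table holds log2 values with a median of 3.74 in each column, as after quantile normalization. Every column followed the array of the same sample most closely (r of at least 0.999). The sources used here do not give its making or centring.

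From the processed intensity of 43803 non-control spots, log2 values minus the array's 75th percentile were averaged over repeated spots, then per identifier over probes flagged well above background on 1 array or more, and floored at -3.7. Spots flagged as outliers were kept, of which 2 belonged to members. The scanner files hold no mean spot signal, so normexp (limma 3.58.1 under R 4.3.3, offset 50) was run on median spot and background signals. Spike-in scaling used the 5 E1A probes with median signals between 30 and 60000 on every array. The neighbour adjustment used a median of 75 spots per probe. Python 3.11.15, numpy 2.4.6 and pandas 2.3.3 were used, and the counting was tested on simulated data.

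The members and lists were chosen with earlier results of these data known. With no gene symbols, the naming rule allowed at most 2 identifiers, those with the largest step among members detected on all 4 arrays. Precision is limited by the number of arrays, and the spread between birds is unknown. The files used here hold 0 columns that could not be matched to a sample.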

Additional observations from a re-analysis of the deposited data

Results flagged for a closer look

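Control spots outside the comparisons of the report carried a signal that differed between times. The spike-in probes, relative to the 75th percentile of each array, lay higher than before molt by 0.94 at 1.5 days, 0.59 at 5 days and 0.41 at 10 days on the log2 scale. Scaled on them, 43 of the 241 identifiers still met the rule. The outlier check could not be made with 1 array per time.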

How the results depend on the processing

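Leaving out a replicate was not possible with 1 array per time, and the counts of gene lists past 2-fold were not run, since no identifier had a symbol. No paired analysis was possible because each time had 1 array. The number of members was 375 with no floor, 45 on the spike-in scale and 26 under normexp. It was 1208 with a step of at least 0.5, 44 with 1.5 and 10 with 2.0, and 10 where 2 or more probes all had to meet the rule. The opposite pattern counted 163 under normexp, 1357 under spike-in scaling and 419 over probes detected on all arrays, against 655. The median step of the 241 was 0.55 under normexp and 0.63 under spike-in scaling, against 1.22. Members with every one of several probes meeting the rule numbered 0 under normexp, 0 under spike-in scaling and 6 under the neighbour adjustment, against 10. Fewer calls under normexp are in part built in, since its offset exceeds the signal of dim spots. The spike-in scale lowers the levels at 1.5, 5 and 10 days against before molt by the measured shifts of 0.94, 0.59 and 0.41. Signal over background limits the dimmest 69 members, of which 18 were detected on all 4 arrays, 39 before molt and 23 at 10 days.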

Other observations

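Identifiers of the opposite pattern, low at 1.5 and 5 days, were also unevenly placed, by rows toward the other end of the array. Of the probes in use in rows 400 to 532, 5.54% belonged to them, against 1.59% of those in rows 1 to 133. For the members of the raised pattern the shares were 0.694% in rows 400 to 532 and 1.50% in rows 1 to 133. By columns the 2 patterns were not mirror images. Probes of the opposite pattern made up 2.01% in columns 1 to 14, 3.56% in columns 43 to 56 and 1.96% in columns 71 to 85.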
